A study of Mus musculus with 8 samples.

Results

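The mitochondrial genome and the machinery that copies, transcribes and translates it were followed in macrophages sorted from mouse liver. The set held 101 of the 35906 genes in the count table. It took the mitochondrially encoded mRNAs (symbols with the prefix mt-), genes of the mitochondrial ribosome (prefixes Mrpl and Mrps, as listed in the deposited FPKM table), and Tfam, Polrmt, Tfb1m, Tfb2m, Twnk, Lrpprc and Slirp. By role these were 13 mitochondrially encoded mRNAs, 48 genes of the large and 29 of the small ribosomal subunit, 4 pseudogenes of ribosomal proteins, and 7 genes of DNA replication, transcription and RNA binding. Large or small subunit was assigned throughout by the prefix Mrpl or Mrps alone. Where each protein sits, in the ribosome or outside it, was not checked. Members were picked by symbol and no measured value entered that rule. The set itself was chosen with earlier results of these data known. A total of 99 members passed the filter on low counts. The others, the pseudogenes Mrps36-ps1 and Mrps36-ps2, were at or near 0 counts. The pseudogene Mrpl48-ps lay just inside the filter, at 1.96 ± 0.54 CPM (counts scaled to library size) in vehicle and 1.51 ± 0.44 in CCl4 (SD, n = 4).

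The series asked what characterizes macrophages in liver fibrosis at the level of the transcriptome. All mice were wild-type BALB/c. One group of 4 libraries came from mice given vehicle and the other, also of 4, from mice given CCl4 (carbon tetrachloride, a liver toxin that injures hepatocytes and, given repeatedly, produces fibrosis). Cells were sorted as CD45+ and F4/80+ per the labels' protocols, to which the series' design text adds CD31-. The sources used here do not give the dose and duration of CCl4 or the age and sex of the mice. Whether the libraries of a group came from different mice is not stated, and p-values therefore reflect the spread among these libraries alone, which may be technical.

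Mitochondria keep a small circular genome whose protein genes all encode core subunits of the respiratory chain and the ATP synthase. The polymerase Polrmt transcribes each strand as a long precursor with the help of Tfam and Tfb2m. The precursor is cut into single mRNAs, most of which are polyadenylated. A dedicated ribosome translates them. Its RNA comes from the mitochondrial genome, while its proteins are encoded in the nucleus and imported. In macrophages, respiration is known to change with the state of activation.

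The tight packing of the mitochondrial mRNAs bears on how their reads were counted, and their sequences are therefore shown first, from GENCODE M21 transcripts (mm10). The reading frame of mt-Atp8 runs into that of mt-Atp6 over 43 bases, capitalized here in chrM:7917-7979 on the + strand. The 2 members lie on 1 RNA.
mt-Atp8 and mt-Atp6: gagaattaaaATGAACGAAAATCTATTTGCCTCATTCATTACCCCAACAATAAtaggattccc
The mRNAs of mt-Co3, mt-Nd4 and mt-Cytb end on a lone T of the stop codon (capital), which the poly(A) tail completes. The last 24 bases are shown, from chrM:9367-9390, chrM:11521-11544 and chrM:15265-15288 on the + strand.
mt-Co3 end: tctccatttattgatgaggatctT
mt-Nd4 end: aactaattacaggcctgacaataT
mt-Cytb end: acaaaatactaaaattatatccaT
The other 10 mRNAs are annotated with a whole stop codon. A further overlap of 7 bases joins mt-Nd4l and mt-Nd4, which also lie on 1 RNA. mt-Nd6 is encoded on the - strand and overlaps the end of mt-Nd5 on the + strand. No step that marks the strand is named in the labels' protocols, so reads from this overlap cannot be told apart.

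Copies of mitochondrial DNA in the nuclear genome share sequence with these mRNAs, and 21 nuclear genes shared at least 1 word of 31 bases with a mitochondrially encoded mRNA. A block on chromosome 1 holds 7 of them, aligned here to the mRNAs they copy. One of these is Gm29216, a copy of bases 1054 to 1545 of mt-Co1 with 98.8% identity. Its 5′ end differs from mt-Co1 by T1056A, C1057T, A1059G, A1060G, C1062A and A1066T (base of mt-Co1, position counted from 1 at the start of mt-Co1, base of the copy). These 6 bases, in capitals, are all that separates the copy from the mitochondrial mRNA (chrM:6381-6450 on the + strand and chr1:24616128-24616197 on the - strand).
mt-Co1: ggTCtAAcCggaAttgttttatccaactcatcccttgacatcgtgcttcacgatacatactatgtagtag
Gm29216: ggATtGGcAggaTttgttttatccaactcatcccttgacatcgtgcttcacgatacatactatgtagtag
The copy of mt-Nd3, Gm28438, differs from it over 345 aligned bases by T3C alone (chrM:9459-9528 on the + strand and chr1:24613050-24613119 on the - strand).
mt-Nd3: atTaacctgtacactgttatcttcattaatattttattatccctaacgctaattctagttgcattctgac
Gm28438: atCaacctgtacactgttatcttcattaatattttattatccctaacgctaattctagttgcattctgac
Copies of mt-Co2, mt-Co3, mt-Atp6, mt-Nd4l and part of mt-Nd4 were identical to the mitochondrial sequence over their whole length. How kallisto divided reads between gene and copy is an estimate, and counts are therefore given below with and without the copies.

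Library totals ran from 19489104 to 26196063 estimated counts. The 95% Wilson interval of a mitochondrial share was at most 0.00992 percentage points to either side, which covers counting error only. Levels are CPM scaled by TMM (edgeR's correction for library composition), and log2 fold changes are CCl4 over vehicle with their standard error (SE). A gene was called where edgeR's quasi-likelihood test gave an adjusted p under 0.05 over the 15212 genes tested. Of these, 15.2% were called, 6.26% lower and 8.93% higher. Of the 99 tested members, 22 were lower (22.2%) and 0 higher, where 1 had an unadjusted p under 0.05 for a rise and DESeq2 called 0 higher. The 22 were all 13 mitochondrially encoded mRNAs and 9 ribosomal protein genes.

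All 13 mitochondrially encoded mRNAs fell in CCl4, between 2.8-fold (mt-Co3) and 6-fold (mt-Nd3). With the nuclear copies added, mt-Nd2 fell most (log2 fold change -2.52), with mt-Nd3 at -2.30 and mt-Co3 at -1.44. The share of the 13 mRNAs in all estimated counts was 3.97%, 5.31%, 3.16% and 1.91% (vehicle 1 to 4) and 0.932%, 1.16%, 0.763% and 0.9% (CCl4 1 to 4). The lowest vehicle library thus lay above the highest CCl4 library, and the vehicle libraries were much more spread out. The group means were 3.59% ± 1.43 and 0.94% ± 0.166 (SD, n = 4), a ratio of 3.82. As a share of the deposited TPM, which weights each transcript by its length, the means were 6.21% ± 2 and 1.79% ± 0.381. The median log2 fold change of the 13 genes was -1.88, against -0.03 over all genes tested. In each of the 13 genes all vehicle libraries were above all CCl4 libraries, which held for 9.49% of all genes tested. In sorted bulk samples fewer cells of a type and less RNA per cell cannot be told apart.

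**Figure D1:**
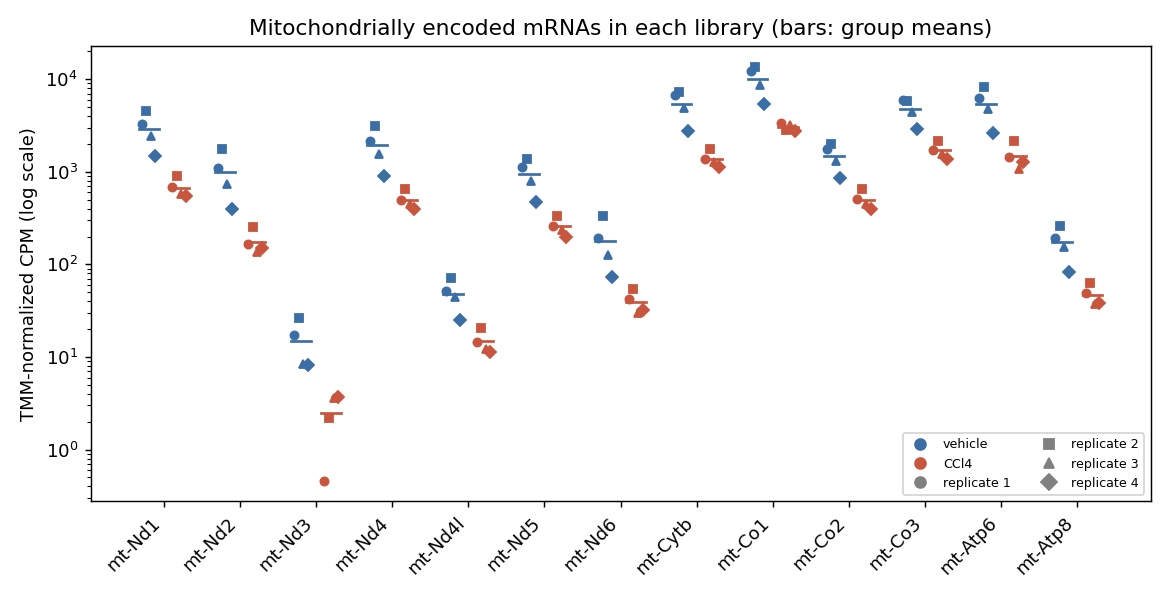
TMM-normalized CPM (log scale) of the 13 mitochondrially encoded mRNAs in each of the 4 vehicle (blue) and 4 CCl4 (red) libraries, with marker shape for the replicate number and bars for group means. In every gene the lowest vehicle library lies above the highest CCl4 library, and vehicle 4 is the lowest vehicle library in all 13.

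The 7 subunits of complex I, the NADH dehydrogenase that feeds electrons into the chain, fell with a median log2 fold change of -2.12. mt-Nd1 (chrM, 2751 to 3707) stood at 3252, 4492, 2435 and 1492 CPM (vehicle 1 to 4) and at 682, 893, 573 and 546 (CCl4 1 to 4). Its log2 fold change was -2.12 (SE 0.31, edgeR adjusted p = 0.00086). Every vehicle library exceeded every CCl4 library, with vehicle 2 highest and vehicle 4 nearest to the CCl4 group. mt-Nd2 (3914 to 4951) went from 1111, 1767, 741 and 398 CPM to 167, 251, 135 and 149, and its log2 fold change was -2.52 (SE 0.40, edgeR adjusted p = 0.00129). Its groups were likewise apart, and CCl4 2 was the highest of its group, as for mt-Nd1. mt-Nd4 (10167 to 11544) went from 2160, 3155, 1577 and 899 CPM to 494, 655, 445 and 399 (log2 fold change -1.97, SE 0.33). mt-Nd5 (11742 to 13565) went from 939.8 ± 390.2 to 257.7 ± 57.4 CPM (log2 fold change -1.87, SE 0.30). mt-Nd4l (9877 to 10173), which shares its RNA with mt-Nd4, had a log2 fold change of -1.71 (SE 0.30).

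mt-Nd6 (13552 to 14070), the single protein gene read from the other strand, stood at 191, 330, 127 and 73.2 CPM (vehicle 1 to 4) and at 42, 54.4, 30 and 32.4 (CCl4 1 to 4). It fell by 2.18 on the log2 scale (SE 0.39, edgeR adjusted p = 0.00303), within the range of the genes on the + strand. As no step that marks the strand is named, RNA of the + strand across this gene would be counted with it. mt-Nd3 (9459 to 9806) was the lowest of the 13, at 17.1, 26.1, 8.31 and 8.16 CPM in vehicle and 0.463, 2.17, 3.62 and 3.66 in CCl4. It fell by 2.59 on the log2 scale, with the largest error of the 13 (SE 0.55, edgeR adjusted p = 0.00755). Between 15.6% and 90.2% of the joint counts of mt-Nd3 and Gm28438 were assigned to the copy in 7 libraries, and nearly none in CCl4 3. With the copies added, mt-Nd3 had 707, 852, 508 and 297 counts in vehicle and 104, 188, 80 and 91 in CCl4. The change was then -2.30 (SE 0.35, edgeR adjusted p = 0.00105), with the groups still apart.

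mt-Cytb (14145 to 15288) encodes the cytochrome b subunit of complex III. It stood at 6693, 7248, 4919 and 2794 CPM in vehicle and 1378, 1760, 1277 and 1124 in CCl4, and its log2 fold change was -1.97 (SE 0.28, edgeR adjusted p = 0.00078). This was the smallest adjusted p of the 13 mRNAs.

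The 3 subunits of complex IV, cytochrome c oxidase, fell with a median of -1.56. mt-Co1 (5328 to 6872), the catalytic subunit, had the most counts of the 13, at 12160, 13680, 8639 and 5343 CPM in vehicle and 3405, 2854, 3210 and 2737 in CCl4. Its log2 fold change was -1.71 (SE 0.27, edgeR adjusted p = 0.00129). The CCl4 libraries lay close together and the vehicle libraries did not. mt-Co2 (7013 to 7696) went from 1765, 1982, 1318 and 850 CPM to 512, 648, 445 and 397 (log2 fold change -1.56, SE 0.26). mt-Co3 (8607 to 9390) went from 5942, 5776, 4436 and 2893 CPM to 1700, 2171, 1540 and 1388 (log2 fold change -1.49, SE 0.25), the smallest fall of the 13.

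mt-Atp6 (7927 to 8607) and mt-Atp8 (7766 to 7969) encode subunits of the membrane part of the ATP synthase and lie on the shared RNA shown above. mt-Atp6 went from 6275, 8235, 4718 and 2611 CPM to 1439, 2161, 1081 and 1291 (log2 fold change -1.87, SE 0.33, edgeR adjusted p = 0.00289). mt-Atp8 went from 194, 261, 152 and 82.5 CPM to 48.5, 63.3, 37.1 and 38 (log2 fold change -1.88, SE 0.31, edgeR adjusted p = 0.0018). The 2 falls differed by far less than either SE. mt-Atp6 had the highest TPM of the 13, at a mean of 15560 in vehicle, followed by mt-Co3 at 11000, mt-Co1 at 9254 and mt-Cytb at 7337 TPM. mt-Atp8 stood at 3757 TPM, although it lies on the same RNA as mt-Atp6, and mt-Nd3 was lowest at 130 TPM. mt-Nd4 and mt-Nd4l, which also share their RNA, stood at 2071 and 557.7 TPM. mt-Atp8, at 204 bases, is shorter than the mean fragment lengths implied by the deposited effective lengths (249.7 to 281.1 bases). The order in TPM is therefore not an order of RNA abundance, and the part of gene length in it was not tested. With counts of the copies added in proportion, mt-Co1 would stand at 13900 TPM and mt-Co3 at 11500, so the order of these genes depends on how reads were divided with the copies.

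The libraries kept nearly the same order in gene after gene. Vehicle 4 was the lowest vehicle library in all 13 genes, vehicle 2 the highest in 12 (vehicle 1 was highest in mt-Co3), and CCl4 2 the highest CCl4 library in 11. How often such orders held over all genes tested was not counted. Within vehicle, the highest library exceeded the lowest by 2.05-fold to 4.51-fold across the genes. Within CCl4 the same ratio was 1.24 to 2 for the 12 genes other than mt-Nd3. The lowest vehicle library exceeded the highest CCl4 library by 1.21-fold to 2.23-fold.

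Of the 4 copies fitted, Gm29216 was the one called. It held 140218, 175697, 97991 and 60970 counts in vehicle and 34499, 31936, 32869 and 25964 in CCl4. Its log2 fold change was -1.85 (SE 0.32, edgeR adjusted p = 0.00219), and it held 30.6% to 37.4% of the joint counts of mt-Co1 and the copy in each library. Gm28437, the copy of mt-Co3, was not called (log2 fold change -0.69, SE 0.34, edgeR adjusted p = 0.22). Neither was Gm28438, the copy of mt-Nd3 (-1.96, SE 0.84, edgeR adjusted p = 0.151), nor Gm10925, the copy of mt-Atp6 (-0.72, SE 0.87, edgeR adjusted p = 0.658), which was at 56.1 CPM in CCl4 3 and between 1.38 and 4.63 CPM in the other CCl4 libraries. Without CCl4 3, Gm10925 was at -3.12 (edgeR adjusted p = 0.000947). Without vehicle 2 Gm28437 was at -0.94 (edgeR adjusted p = 0.0302). With the copies added to the genes they match, all 13 mRNAs were still called lower and the mitochondrial share was 4.14% ± 1.69 in vehicle and 1.09% ± 0.162 in CCl4.

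Complex I genes held 19.3%, 23.2%, 19.2% and 18.8% of the counts of the 13 mRNAs (vehicle 1 to 4) and 16.4%, 18.6%, 15.9% and 16.1% (CCl4 1 to 4). Vehicle 4 and CCl4 2 were nearly level. mt-Cytb held 15.8% ± 0.695 in vehicle and 14% ± 0.609 in CCl4. Both groups of shares were apart as counted but overlapped once the copies were added. Complex I then stood at 16.4% in vehicle 4 and 16.7% in CCl4 2, and mt-Cytb at 12.8% in vehicle 2 and 13.3% in CCl4 2. Complex IV genes held 47.9% ± 2.64 in vehicle and 53.8% ± 4.2 in CCl4, and here CCl4 2, at 47.8%, lay within the vehicle range. Of single genes, mt-Co3 had a higher share in every CCl4 library than in any vehicle library, and mt-Nd1 and mt-Nd2 a lower one, both with and without the copies. mt-Co2 was apart without the copies alone, and mt-Nd3 with them alone. The shares of a whole are tied to each other and were not tested.

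**Figure D2:**
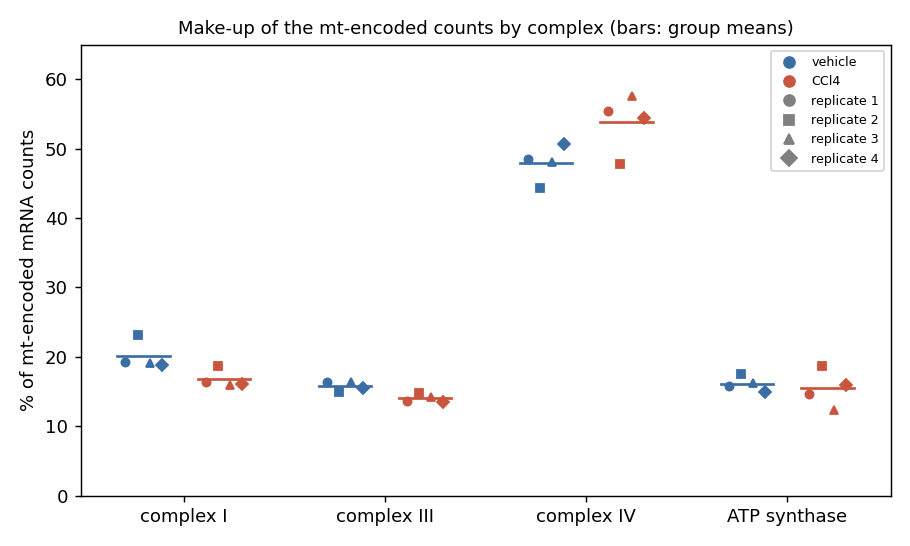
Share of the counts of the 13 mitochondrially encoded mRNAs (%) taken by the genes of each respiratory complex, per library, with bars for group means. Nuclear copies are not included: complex I and complex III shares are then lower in all CCl4 than in all vehicle libraries, but with the copies added the groups overlap in all 4 complexes.

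Markers of several cell types also differed between the groups. Summed over 5 Kupffer cell markers (Clec4f, Vsig4, Timd4, Cd5l and Marco), the level was 14380 to 22810 CPM in vehicle and 5376 to 10240 in CCl4, and 4 of the 5 fell. Summed over 5 endothelial markers it was 361.4 to 671.2 CPM and 153.1 to 248.1 CPM, with 4 of 5 lower. Pan-macrophage markers summed to 23980 ± 1388 and 54590 ± 6919 CPM, where 1 of 6, Lyz2, was called higher. Without Lyz2 the other 5 summed to 7533 ± 1663 and 7559 ± 1068 CPM. Neutrophil markers went from 32.4 to 83.3 CPM up to 66.4 to 252.7 CPM, with 3 of 6 higher. Hepatocyte markers summed to 88.2 to 134.2 CPM and 53 to 111.3 CPM, with 1 of 6 lower, Alb. Of 5 stellate cell markers, Col1a1 and Col3a1 were higher and Lrat and Reln lower. Of 4 B cell markers Cd79b was lower, and of 4 tested T and NK cell markers 0 were called. Within vehicle, vehicle 2 had the highest mitochondrial share but the lowest Kupffer cell and endothelial sums. Vehicle 1, 3 and 4 kept 1 order in share and Kupffer cell sum (3.97%, 3.16%, 1.91% and 22810, 22550, 20010 CPM). Their endothelial sums ran the other way (560, 566.4 and 671.2 CPM). CCl4 2 was highest of its group in share and Kupffer cell sum (1.16% and 10240 CPM). CCl4 3 was lowest in share and next in Kupffer cell sum (0.763% and 7688 CPM). None of these markers was at 0 in any library. The part of these cell types in the mitochondrial result was not tested. Vehicle 2 had the shortest mean fragment length that the deposited effective lengths imply, 249.7 bases against 261.5 to 281.1 in the other libraries. Vehicle 2 and CCl4 4 had the most genes with a count, 23020 and 23870 against 19260 to 21670. Without both, all 13 mRNAs were still called lower.

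Few mRNAs of mitochondrial ribosomal proteins were called. Of the 77 large- and small-subunit genes tested, 9 were called lower (11.7%, against 6.26% of all genes) and 0 higher, where 1 gene, Mrpl43, had an unadjusted p under 0.05 for a rise and DESeq2 called 0 higher. By prefix, 6 of 48 Mrpl genes (12.5%, median log2 fold change -0.18) and 3 of 29 Mrps genes (10.3%, median -0.27) were called. The median over all 77 was -0.23, with 66 genes below 0 and 11 above. The libraries of the groups did not overlap for 17 of the 77 genes (22.5% of all genes tested), and 16 of these were lower in CCl4 (9.49% of all genes tested). No test compared these medians with that of the mitochondrial mRNAs.

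**Figure D3:**
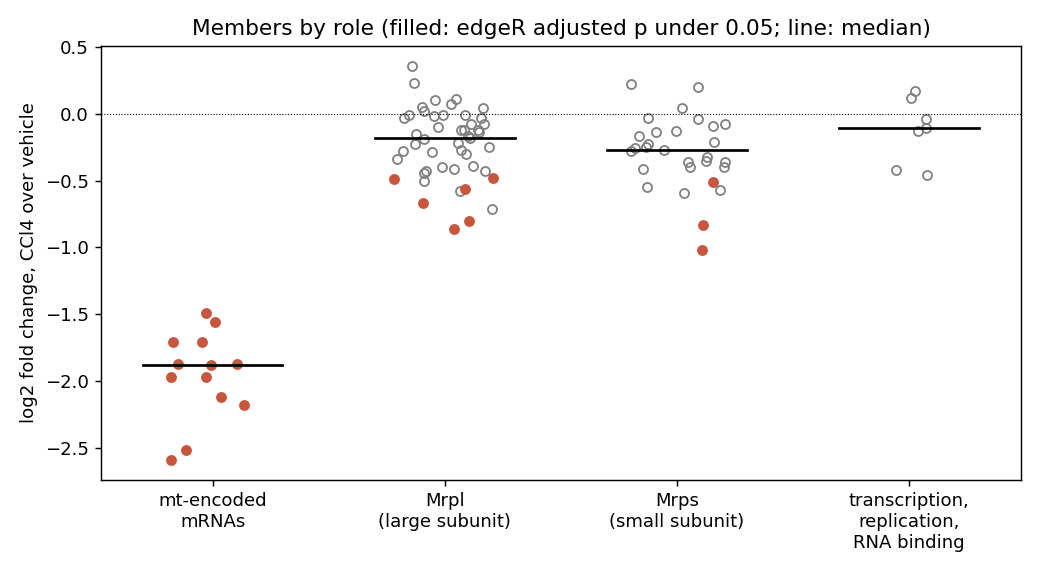
Log2 fold change (CCl4 over vehicle) of the members by role, with filled points for an edgeR adjusted p under 0.05 and lines at the medians. All 13 mitochondrially encoded mRNAs lie at or below -1.49, whereas the ribosomal protein genes run from -1.02 to 0.36.

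The summed level of the 48 large-subunit genes was 1400, 1881, 1472 and 1394 CPM (vehicle 1 to 4) and 1204, 1474, 1337 and 1185 (CCl4 1 to 4). That of the 29 small-subunit genes was 756.4, 1084, 778.3 and 760.8 CPM and 662, 774.5, 703 and 607.6 CPM. The groups overlapped in both sums, and vehicle 2 stood above all other libraries in both. The mitochondrial mRNAs amounted to 18.98, 16.32, 13.3 and 8.33 times the ribosomal protein CPM in vehicle and 5.44, 5.28, 4.42 and 4.64 times in CCl4. This ratio did not overlap between the groups (14.2 ± 4.57 and 4.94 ± 0.489, SD, n = 4).

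**Figure D4:**
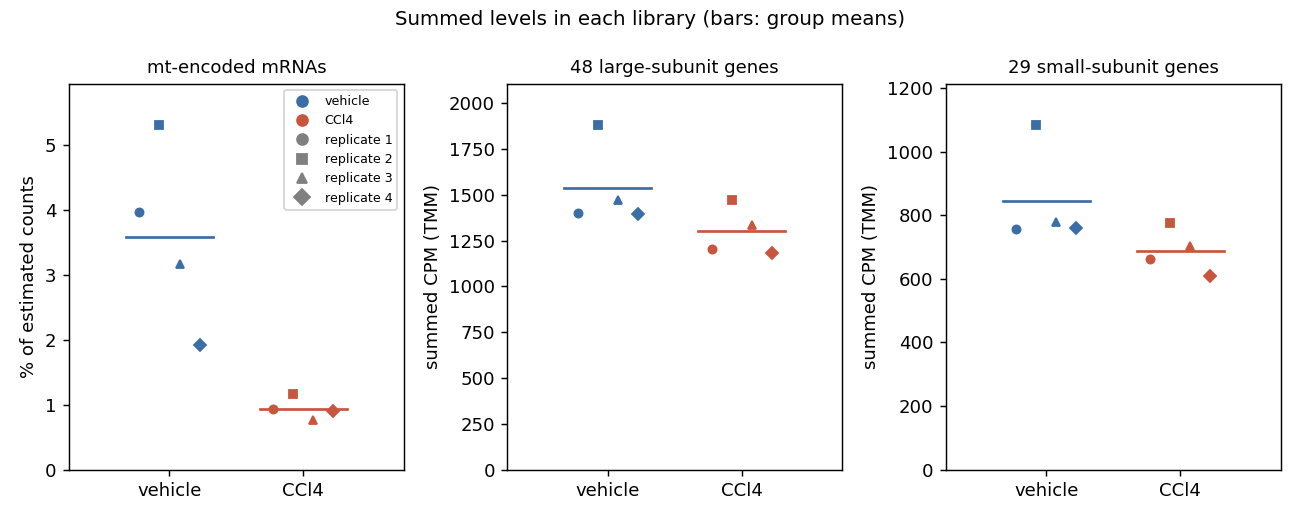
Share of the 13 mitochondrially encoded mRNAs in all estimated counts (%) and summed TMM-normalized CPM of the 48 large- and 29 small-subunit genes, per library, with bars for group means. Subunits are assigned by the prefix Mrpl or Mrps alone. The mitochondrial share is 1.91% or more in vehicle and 1.16% or less in CCl4, while the ribosomal sums of the groups overlap.

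Mrps28, a small-subunit protein gene (chromosome 3, 8802146 to 8923918), fell most of the ribosomal genes. It stood at 22, 33.7, 19 and 17.2 CPM (vehicle 1 to 4) and 11.7, 12.2, 12.9 and 8.61 (CCl4 1 to 4), and its log2 fold change was -1.02 (SE 0.22, edgeR adjusted p = 0.00973). Its groups did not overlap. Mrps6 (chromosome 16, 92058270 to 92112227) went from 26.9, 37.2, 30.6 and 21.6 CPM to 19.5, 16, 17.1 and 12.9 (log2 fold change -0.83, SE 0.19, edgeR adjusted p = 0.0122). Both genes stayed called in all 18 alternative analyses. Mrps6 shares 18.4% of its 31-base words with the overlapping gene Gm49711.

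Mrpl3, a large-subunit protein with a bacterial counterpart (chromosome 9, 105053239 to 105079888), stood at 65.9, 63.6, 78 and 68.1 CPM in vehicle and 34, 45.4, 36.7 and 36 in CCl4. Its log2 fold change of -0.86 had the smallest adjusted p of the ribosomal genes (SE 0.14, edgeR adjusted p = 0.00166). Its groups did not overlap. Only 21.4% of its counts in vehicle and 24.4% in CCl4 came from transcripts annotated as protein-coding, and with such transcripts alone it was not called (edgeR adjusted p = 0.0617).

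Mrpl42, a protein of the mitochondrial ribosome with no bacterial counterpart (chromosome 10, 95480805 to 95501940), was the most abundant of the 77 per length, at a mean of 294.9 TPM over all libraries where the median gene had 37.8. It stood at 102, 199.6, 103 and 104 CPM in vehicle and 67.9, 81.7, 73.3 and 70.3 in CCl4 (log2 fold change -0.80, SE 0.22, edgeR adjusted p = 0.0313). Vehicle 2 was far above the other vehicle libraries, but these were above all CCl4 libraries too. The call ended without CCl4 1, 3 or 4 (edgeR adjusted p between 0.0639 and 0.105).

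The other 5 called genes are of the large subunit, apart from Mrps12, whose protein sits at the decoding centre. Mrpl22, which lines the exit tunnel, fell by 0.67 (SE 0.20), Mrpl17 by 0.56 (SE 0.16), Mrps12 by 0.51 (SE 0.16), Mrpl16 by 0.49 (SE 0.14) and Mrpl46 by 0.48 (SE 0.14) on the log2 scale, with edgeR adjusted p between 0.0356 and 0.0491. Mrps12 for example went from 21.1, 27.5, 20.6 and 24.9 CPM to 15.7, 15.7, 19.9 and 14.7. CCl4 3 came close to the lowest vehicle library there. Each of these 5 calls ended in 5 to 7 of the 8 analyses with 1 library left out. Mrpl17 lost its call without vehicle 1 or 3 or CCl4 1, 3 or 4, and Mrpl16 and Mrpl46 in the same cases and without vehicle 4. Mrpl22 lost it without any library but CCl4 2, and Mrps12 without any but CCl4 3. The edgeR adjusted p in these cases was between 0.0558 and 0.131.

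**Figure D5:**
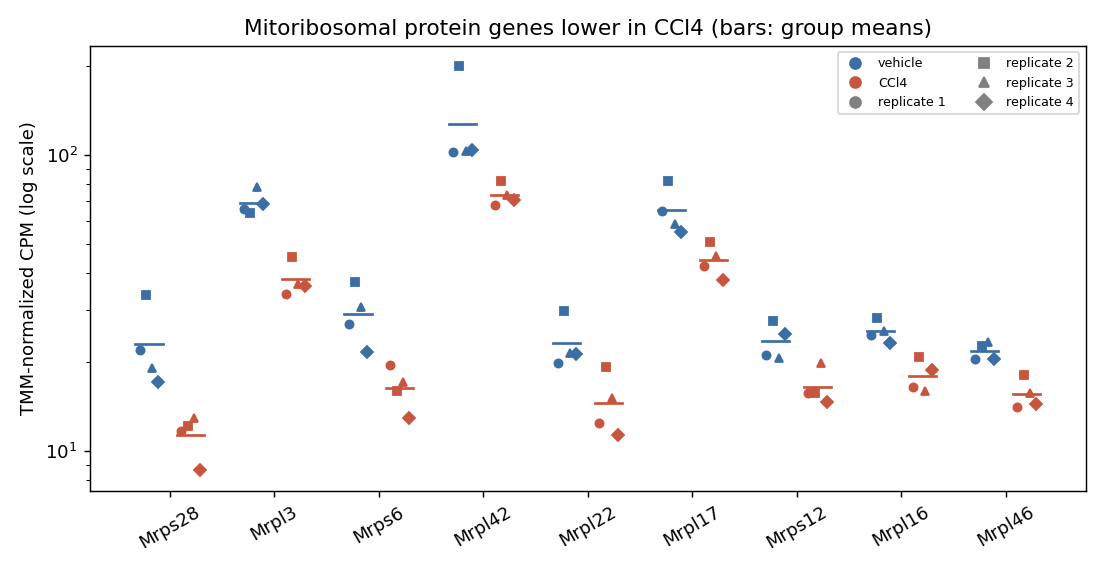
TMM-normalized CPM (log scale) of the 9 ribosomal protein genes called lower in CCl4, per library, with bars for group means. In each gene all vehicle libraries lie above all CCl4 libraries, and vehicle 2 stands out in Mrpl42, Mrpl22 and Mrps28.

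Leaving out a single library changed the number of ribosomal genes called lower in most cases. The share of all genes called lower changed too, not always in the same direction. With all libraries the number of ribosomal genes called lower was 9 (11.7%, against 6.26% of all genes). It was 4 without vehicle 1 (5.19%, against 4.29% of all genes), 7 without vehicle 2 (9.09% against 7.53%), 4 without vehicle 3 (5.19% against 4.31%) and 5 without vehicle 4 (6.49% against 4.13%). It was 3 without CCl4 1 (3.9% against 3.67%), 9 without CCl4 2 (11.7% against 5.44%), 4 without CCl4 3 (5.19% against 4.45%) and 3 without CCl4 4 (3.9% against 5.72%). Without both vehicle 2 and CCl4 4 it was 4 of 77 (5.19%, against 7.76% of all genes), 49 of the 77 genes lay below 0, and their median log2 fold change was -0.05. Without vehicle 2 alone the median was -0.09.

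The most abundant ribosomal genes by CPM other than Mrpl42 were near level. Mrpl28 was at 79.9 ± 11.2 CPM in vehicle and 75.5 ± 14 in CCl4 (log2 fold change -0.08, SE 0.17), and Mrpl4 at 75.9 ± 4.27 and 78.7 ± 9.95 (0.05, SE 0.13). Neither passed the test, and the sign of each changed under some alternatives. Mrpl43 had the highest log2 fold change of the 77, 0.36 (SE 0.14), with 19.6 ± 1.99 CPM in vehicle and 25.2 ± 2.17 in CCl4 (chosen for mention after its values were seen). Its groups did not overlap, but it was not called (edgeR adjusted p = 0.103), except without vehicle 2 and CCl4 4 together. Mrpl43 and Twnk overlap on opposite strands and share 31.6% of the words of Mrpl43.

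Of the pseudogenes, Mrpl23-ps1 was at 39.2 ± 11 CPM in vehicle and 28.6 ± 5.75 in CCl4, above its parent gene Mrpl23 at 10.5 ± 5.28 and 7.72 ± 1.58 CPM. It shares 94.6% of its 31-base words with Mrpl23, so the division of reads between them is an estimate. Neither was called (edgeR adjusted p = 0.169 for Mrpl23-ps1 and 0.39 for Mrpl23).

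RefSeq promoters (GRCm38.p6, 250 bases before to 50 after the start) were found for 68 of the 77 genes and all 7 genes of replication, transcription and RNA binding. They were searched on both strands for the core letters of 3 factors that bind promoters of mitochondrial genes: CCGGAAG (ETS family, which includes GABP), GCGCATGC (NRF1) and AAGATGGC (YY1), which do not overlap each other in letters. The ETS letters were in 25 of the 68 promoters (36.8%), against 9.93% of 27025 genes with a promoter in the table. The YY1 letters were in 12 (17.6%, against 3.19%) and the NRF1 letters in 8 (11.8%, against 3.05%). At least 1 of the 3 was in 37 (54.4%, against 14.9%). The 27025 genes were not limited to the 15212 tested here. Whether these shares differ from those of expressed genes in general was not tested. Of the 8 called genes with a promoter entry, 4 held the ETS, 2 the NRF1 and 2 the YY1 letters. No entry was matched for Mrps28. A match describes these letters in these windows and does not show binding. The promoters of Mrpl3 (chr9:105053018-105053317, + strand) and Mrps12 (chr7:28741772-28742071, - strand) are shown as examples of called genes, with the matches in capitals. Mrpl3 holds 1 ETS match, and Mrps12 holds 1 match to YY1 (on the opposite strand) and 1 to ETS.
Mrpl3 promoter: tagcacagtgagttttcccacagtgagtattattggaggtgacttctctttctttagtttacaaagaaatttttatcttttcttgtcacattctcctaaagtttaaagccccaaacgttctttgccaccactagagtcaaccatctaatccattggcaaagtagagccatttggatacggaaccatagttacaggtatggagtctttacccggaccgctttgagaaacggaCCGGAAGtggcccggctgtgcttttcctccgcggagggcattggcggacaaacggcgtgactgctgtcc
Mrps12 promoter: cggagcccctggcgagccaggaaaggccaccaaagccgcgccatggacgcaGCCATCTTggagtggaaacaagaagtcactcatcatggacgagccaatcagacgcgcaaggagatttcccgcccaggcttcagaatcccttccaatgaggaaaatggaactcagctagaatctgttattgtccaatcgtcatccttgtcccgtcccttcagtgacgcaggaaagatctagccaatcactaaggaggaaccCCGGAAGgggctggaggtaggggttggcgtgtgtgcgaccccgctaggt

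The 7 genes that replicate, transcribe and bind the mitochondrial genome and its RNA were not called in either direction. Since 15.2% of all genes tested were called, 0 calls among 7 genes says little. The median log2 fold change of the 7 was -0.11, 1 had an unadjusted p under 0.05 and DESeq2 called 0. Tfam, which packages the genome and starts transcription (chromosome 10, 71225464 to 71238280), had the lowest p of these genes. It stood at 11.1, 15.8, 12.9 and 11 CPM in vehicle and 7.91, 10.4, 7.47 and 11.2 in CCl4 (log2 fold change -0.46, SE 0.20, edgeR adjusted p = 0.153). CCl4 4 lay among the vehicle libraries. Polrmt, the RNA polymerase (chromosome 10, 79736123 to 79746581), stood at 11.4, 4.78, 20.6 and 15.6 CPM in vehicle and 13.1, 15.6, 16.8 and 11.5 in CCl4 (0.12, SE 0.34, edgeR adjusted p = 0.863). Its vehicle libraries were widely spread, and vehicle 2 was lowest where it was highest for most mitochondrial mRNAs.

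Tfb2m, the other transcription initiation factor, was at 14.1 ± 2.23 CPM in vehicle and 12.9 ± 1.94 in CCl4 (log2 fold change -0.13, SE 0.18). Tfb1m, which methylates the small ribosomal RNA, was at 3.17 ± 0.89 and 2.37 ± 0.471 CPM (-0.42, SE 0.31). Twnk, the helicase of mitochondrial DNA replication, was at 5.83 ± 1.38 and 5.66 ± 1.06 CPM (-0.04, SE 0.24). None of these 3 passed the test, and in each the groups overlapped. Lrpprc and Slirp form a complex that stabilizes the mitochondrial mRNAs. Lrpprc was at 22.8 ± 5.92 and 25.7 ± 1.96 CPM (0.17, SE 0.19) and Slirp at 32 ± 11.5 and 29.6 ± 5.34 CPM (-0.11, SE 0.23), without a call. Of the 31-base words of Slirp 91.2% are also in Snw1, on the other strand, so its level is uncertain.

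Other genes of mitochondrial gene expression were read from 7 lists. Over all genes tested, 6.26% were called lower and 8.93% higher. Of 33 tested genes of mitochondrial RNA processing and turnover, 0 were called (median log2 fold change -0.08, 3 with an unadjusted p under 0.05, 0 by DESeq2). Of 10 genes of mitochondrial DNA replication, 2 fell (20%) and 0 rose (median -0.08). Top1mt, the mitochondrial topoisomerase, went from 9.01, 9.15, 7.36 and 9.32 CPM to 4.21, 4.18, 4.98 and 4.33 (log2 fold change -0.98, SE 0.19, edgeR adjusted p = 0.00442). The groups were well apart and the call held without any single library. Rnaseh1, which removes RNA primers, was at -0.57 (SE 0.15).

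Of 20 genes that charge mitochondrial tRNAs, 3 fell (15%, against 6.26% of all genes) and 0 rose (median -0.35). Qrsl1 and Gatb, subunits of the enzyme that makes glutaminyl-tRNA, were at -0.91 (SE 0.22) and -0.56 (SE 0.16), and Rars2, which charges arginine, at -0.59 (SE 0.15). Of 14 translation factors, 1 fell (7.14%) and 0 rose (median -0.08): Tsfm, the exchange factor of elongation factor Tu, at -0.59 (SE 0.17). The calls of Rnaseh1, Gatb and Tsfm each ended in 6 of the 8 analyses with 1 library left out. These were those without vehicle 1, 3 or 4 or CCl4 1 or 4 and, for Gatb and Tsfm, CCl4 3 or, for Rnaseh1, CCl4 2. The call of Qrsl1 ended without vehicle 4 or CCl4 1, and that of Rars2 without vehicle 3 or CCl4 1 or 4. The edgeR adjusted p in these cases was between 0.0525 and 0.109.

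Of 22 genes listed for ribosome assembly, 1 rose (4.55%, against 8.93% of all genes) and 1 fell (4.55%, against 6.26%), with a median of -0.21. The list was not limited to assembly factors. Tfb1m is also a member, and Ptcd3 is also on the list of RNA processing. Ddx28, a helicase of large-subunit assembly, stood at 7.13, 4.97, 7.52 and 8.4 CPM in vehicle and 25, 22.6, 32.4 and 21.7 in CCl4. Its log2 fold change was 1.86 (SE 0.20, edgeR adjusted p = 0.000142) with the groups far apart. It overlaps Dus2 on the other strand, and reads of the overlap cannot be told apart. Rcc1l, a further assembly factor, was at -0.64 (SE 0.18), a call that ended without any library but vehicle 2 (edgeR adjusted p between 0.0581 and 0.103).

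Of 10 regulators of mitochondrial biogenesis, 1 fell (10%, against 6.26% of all genes) and 0 rose (median 0.18). The transcription factor Myc went from 78.5, 66.4, 110.2 and 91.1 CPM to 41.8, 45.5, 59.1 and 39.3 (-0.90, SE 0.19, edgeR adjusted p = 0.00711), with no overlap. Of 24 genes of import, chaperones and mitochondrial mass, 1 rose (4.17%, against 8.93% of all genes) and 1 fell (4.17%, against 6.26%), with a median of -0.02. Vdac1, a channel of the outer membrane, rose from 29.6, 33.1, 37.5 and 39.9 CPM to 84.2, 54.7, 76.3 and 77 (1.06, SE 0.17, edgeR adjusted p = 0.00125), again with no overlap. Slc25a5, an ADP/ATP carrier, was at -0.49 (SE 0.15, edgeR adjusted p = 0.0478), a call that ended without any 1 of the 8 libraries (edgeR adjusted p between 0.0516 and 0.116).

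Respiratory chain subunits encoded in the nucleus were read as the partners of the mitochondrial mRNAs. Of 81 tested, 1 was called lower (1.23%, against 6.26% of all genes) and 0 higher. The median log2 fold change was -0.17, with 60 genes below 0 and 21 above. An unadjusted p under 0.05 was found for a fall in 6 genes and for a rise in 1. DESeq2 called 3 lower and 1 higher. The medians by complex were -0.22 for 37 genes of complex I, 0.11 for 4 of complex II, which has no mitochondrially encoded subunit, -0.09 for 9 of complex III, -0.20 for 14 of complex IV and -0.15 for 17 of the ATP synthase. The summed CPM of the mitochondrial mRNAs was 5.28, 5.02, 3.99 and 2.37 times that of the nuclear subunits in vehicle and 1.32, 1.36, 1.16 and 1.31 times in CCl4. The ratio did not overlap between groups and was nearly the same in the CCl4 libraries (4.16 ± 1.32 and 1.29 ± 0.0901). Of 83 tested proteins of the cytosolic ribosome, 1 was called higher (1.2%, against 8.93% of all genes) and 0 lower. Their median was 0.11, and an unadjusted p under 0.05 was found for a rise in 6 and for a fall in 2. DESeq2 called 4 higher and 1 lower. The difference between these families and the members was not tested.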

How the data were processed

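RNA was sequenced from 8 libraries of sorted liver macrophages, grouped by the treatment label. Per the labels' protocols, amplification used SMART-Seq HT and libraries NEBNext Ultra II, with no step named that marks the strand. The build was mm10 and the tools named were kallisto, limma and edgeR, per the submitters' processing notes. The sources used here give neither versions nor the transcript release. The authors deposited kallisto estimated counts per transcript, not normalized between samples, with TPM and effective lengths, which gave the implied fragment lengths. The TPM deposited by the authors are scaled to a fixed total per sample. The authors also deposited an FPKM table per gene, made by steps that the sources used here do not give.

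Estimated counts were summed per gene through GENCODE M21 (116405 of 117494 transcripts matched by identifier, 13 with the version, while the 1089 unmatched held 0.29% to 0.313% of counts) and rounded. Symbols came from the FPKM table for 100 members, and Twnk from the count tables. Mrpl58, which is not a symbol of the FPKM table, was read with the translation factors and not as a member. edgeR 4.0.16 in R 4.3.3 (filterByExpr, minimum count 10, minimum total 15, TMM, quasi-likelihood test, group as the sole term, two-sided, Benjamini-Hochberg, threshold 0.05) tested 15212 genes and set aside 20694. CPM are relative to the TMM-scaled counts in tested genes, and an SE is the log2 fold change over the root of F. The test was checked on simulated data in which 200 of 14928 genes changed. It recovered 72% of the genes changed by 1 on the log2 scale and 98% of those changed by 2. Of its calls 3% were false. Changes smaller than 1, as in most called ribosomal genes, were not simulated. Library totals of 19489104 or more give narrow counting intervals. Libraries within a group differed beyond sampling noise (mean chi-square per gene 30.02 or more). Alternatives were DESeq2 1.42.0, other scalings, no count filter, a replicate block, coding transcripts alone, nuclear copies added, limma 3.58.1 on log2(FPKM + 0.1), and each library left out.

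Named were all mitochondrially encoded mRNAs, the 7 genes of replication, transcription and RNA binding, ribosomal genes called if 25 or fewer, the 3 of highest CPM, those at the filter's edge, and up to 4 called genes per pathway list. The members, lists and promoter motifs were chosen with earlier results of these data known. Mitochondrial ribosomal and transfer RNAs were not analysed here. Overlapping words of 31 bases were compared over all M21 transcripts.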

Additional observations from a re-analysis of the deposited data

Results flagged for a closer look

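In 11 of 100 groups of 4 libraries, 1 library lay apart from the other 3 by more than Dixon's 95% limit, where chance flags about 1 in 20 groups. In 7 of them the library was vehicle 2. Mrpl42 was at 199.6 CPM there (102.4 to 103.7 in the other vehicle libraries), Mrpl22 at 29.8, Mrpl28 at 96.5 and Slirp at 49.3 (25.6 to 27.3 in the others). Vehicle 2 was also apart in the sum of the large-subunit genes, at 1881 CPM, in the sum of the small-subunit genes, at 1084 CPM, and in the pathway gene Slc25a5, at 1346 CPM against 1286 to 1296. Vehicle 2 had the shortest implied fragment length, and its part in these values was not tested.

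Vehicle 1 was apart in Tfb1m, at 4.49 CPM against 2.61 to 2.92, and in Tfb2m, at 10.8 CPM against 14.9 to 15.6. Vehicle 3 was apart in Top1mt, at 7.36 CPM against 9.01 to 9.32. CCl4 3 was apart in Gm10925, the nuclear copy of mt-Atp6, at 56.1 CPM against 1.38 to 4.63.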

How the results depend on the processing

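The 13 mitochondrially encoded mRNAs were called lower in the main analysis and in all 18 alternatives. With 1 library left out, their median log2 fold change ran from -2.11 to -1.63 and the log2 ratio of mitochondrial shares from -2.14 to -1.68 (-1.93 with all libraries). Members called lower ran from 16 to 22 and members called higher from 0 to 1 (Mrpl30, without vehicle 2). The ribosomal protein genes depended more on the settings: 3 to 9 were called lower and 0 to 1 higher with 1 library left out, with a median from -0.30 to -0.09. With library size alone as scaling, 15 were called lower. That scaling moved the median of all genes to -0.155 and upper-quartile scaling to -0.119, and the calls over all genes were 1082 higher and 1431 lower, and 1226 higher and 1356 lower, against 1358 and 953 with TMM. Under these scalings 73 and 71 of the 77 ribosomal genes lay below 0, against 66 under TMM. Without vehicle 2 and CCl4 4, 4 ribosomal genes were called lower and 1 higher (Mrpl43, the 1 member called higher), with a median of -0.05. The cause was not tested.

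Genes without a call changed sign in some settings. Polrmt was at -0.02 with library size alone, -0.07 without vehicle 2 and CCl4 4, -0.41 from FPKM and between -0.15 and 0.43 with 1 library left out. Tfb2m was at 0.06 from FPKM. Twnk ran from -0.14 to 0.09 with 1 library left out (0.05 without vehicle 3, 0.07 without vehicle 4, 0.09 without CCl4 1). Slirp was at 0.24 without vehicle 2 and CCl4 4 and 0.17 without vehicle 2. Mrpl28 was at 0.11 without vehicle 2 and CCl4 4, 0.02 without either alone, and down to -0.16 with another library left out. Mrpl4 was at -0.09 with library size alone, -0.04 with upper-quartile scaling, -0.09 with coding transcripts alone, -0.20 from FPKM and -0.01 without CCl4 3. The cause was not tested.

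Deviations from the group mean correlated at 0.015, -0.241, 0.039 and -0.169 between same-numbered libraries. Between differently numbered libraries the correlations ran from -0.46 to 0.472. With 4 libraries per group this cannot decide whether the numbers pair the samples. With the replicate number as a block, 23 members and 10 ribosomal genes were lower. Mrpl46 (edgeR adjusted p = 0.0537) and Mrps12 (0.0904) lost their calls and Mrpl57, Mrps14 and Mrps33 gained one. The medians with the block were -1.80 for the mitochondrial mRNAs and -0.23 for the ribosomal genes. DESeq2 called 24 members lower and limma on FPKM 19. Depth limits the low pseudogenes and the low Tfb1m most. The low counts of mt-Nd3 also depend on how reads were divided with its copy.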

Other observations

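Among the 77 ribosomal protein genes vehicle 2 was the highest vehicle library in 61 and the highest of all 8 libraries in 55. CCl4 2 was the highest CCl4 library in 55 of the 77, and how often such orders held over all genes tested was not counted. Polrmt, Qrsl1, Gatb, Rnaseh1, Ddx28, Rcc1l and Myc, by contrast, had their lowest vehicle level in vehicle 2 (genes chosen after their values were seen).

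Several nuclear members share most of their 31-base words with another gene: Mrpl53 with Gm42688 (84.4%), Mrps25 with Nr2c2 (68.9%) and Mrps34 with Mapk8ip3 (56.8%). Their levels rest on how kallisto divided shared reads.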
